A study of Homo sapiens with 2 samples.

Results

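Messages of 10 secreted growth factors and insulin-like growth factor (IGF)-binding proteins were followed in HEK293T cells with and without depletion of SRα. That protein is one subunit of the membrane receptor that docks the signal recognition particle (SRP). The genes are MDK, PTN, IGFBP2, IGFBP3, IGFBP4, IGFBP5, NPPC, VGF, GDF11 and VEGFA. They were taken as the rows whose Ensembl gene ID, without its version, carries one of these symbols, and all 10 were found once among 57820 gene IDs. HEK293T is an established line of human embryonic kidney cells. Messenger RNA was sequenced once per condition, after a control siRNA (below, the control library) and after an SRα siRNA (the SRα library). Both groups are the same line with no other allele or agent named. The siRNA sequences and the treatment time were not given in the sources used here. The genes were chosen by function with their ratios between these 2 libraries known, so the ratios are given as a description and no test was made of them. With 1 library per group the differences have no replicate check, and every interval below covers counting error only.

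Secreted proteins reach the outside of the cell through the endoplasmic reticulum (ER). SRP binds the hydrophobic signal sequence at the start of the growing chain, and SRα, encoded by SRPRA, receives the ribosome at the ER membrane. IGF-binding proteins hold IGF1 and IGF2 outside the cell and set how much reaches the receptor IGF1R. Midkine (MDK) and pleiotrophin (PTN) are related heparin-binding growth factors, NPPC encodes C-type natriuretic peptide, VGF is a granin-like precursor of peptide hormones, GDF11 is a ligand of activin receptors and VEGFA drives the growth of blood vessels.

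The feature that SRP reads is written in the first codons of these genes. The coding starts of 4 of them are shown, each as the first 120 bases of the coding sequence, read from GENCODE 29 transcripts (GRCh38). Capitals mark the 12 codons whose residues have the highest mean hydropathy on the Kyte-Doolittle scale, and the 4 were chosen to show how differently a hydrophobic start can be spelled.
IGFBP2: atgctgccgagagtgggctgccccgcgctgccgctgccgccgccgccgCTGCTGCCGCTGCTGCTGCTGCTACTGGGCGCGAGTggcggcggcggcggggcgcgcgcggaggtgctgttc
IGFBP5: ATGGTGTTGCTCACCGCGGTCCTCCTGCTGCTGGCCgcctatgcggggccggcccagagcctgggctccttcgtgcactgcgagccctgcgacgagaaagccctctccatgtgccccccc
NPPC: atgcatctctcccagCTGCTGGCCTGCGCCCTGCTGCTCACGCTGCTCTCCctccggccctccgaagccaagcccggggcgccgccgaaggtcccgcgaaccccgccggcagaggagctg
GDF11: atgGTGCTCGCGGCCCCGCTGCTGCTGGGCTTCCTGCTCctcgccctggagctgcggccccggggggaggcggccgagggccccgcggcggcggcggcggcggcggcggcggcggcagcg
In IGFBP2 the marked stretch spans codons 17 to 28, holds 8 leucine codons and has a mean hydropathy of 2.45. In IGFBP5 it spans codons 1 to 12 with 6 leucine codons and a mean of 3.0. GC made up 79.2% of the first 120 bases in IGFBP2, 85.0% in GDF11 and 70.0% in IGFBP5. Of the 10 genes, 9 reached a mean of at least 2.0 within the first 40 codons, against 14.4% of 11434 measured protein-coding genes. The exception was VEGFA at 1.53, in 1 of its coding transcripts tagged principal in the annotation. The genes were picked as secreted proteins, so this share describes the choice.

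The libraries held 2445200 (control) and 3896721 (SRα) reads assigned to genes. SRPRA, the depleted gene, had 507 and 449 reads, or 205 and 117 CPM (counts per 1000000 reads after scaling of the libraries), a ratio of 0.570 (95% counting interval 0.501 to 0.648). Markers of the line were present in both libraries. Of 11 listed, 9 had a gene ID and all 9 were measured, with a summed level of 1193 and 1332 CPM. Of the 9, 7 were higher in the SRα library, against 51.4% of all measured genes. Their median log2 ratio (SRα over control) was 0.31, against 0.01. At least 1.5-fold higher were 2, against 6.55%: INA (10 and 28 reads) and PAX2 (1 and 7), named after their values were seen. PAX2, at 0.404 and 1.82 CPM, counts as measured only through the SRα library. Of 16 markers of blood, endothelial, connective tissue, liver, muscle and glial cells, 15 had a gene ID. Of these 6 had no read in either library, among them PTPRC and CDH5, and 5 were measured. The most read was COL1A1 (named after its values were seen), with 31 reads in the control library and 44 in the SRα library. The sum over the list was 21.8 and 20.8 CPM.

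Ratios are given as log2 of SRα siRNA over control siRNA, and a gene is called measured from a mean level of 1 CPM. Paired read numbers give the control library first. Of the 10 genes, 7 were measured. PTN, IGFBP3 and IGFBP4 had 1 to 3 reads in each library. IGFBP2, IGFBP5, MDK and VEGFA held 89.6% of the reads of all 10 genes in the control library (exact binomial interval 86.5% to 92.1%) and 90.6% in the SRα library (88.0% to 92.9%). In sum the 10 genes stood at 197 CPM (180 to 216, exact Poisson) in the control library and at 153 CPM (140 to 165) in the SRα library.

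**Figure D1:**
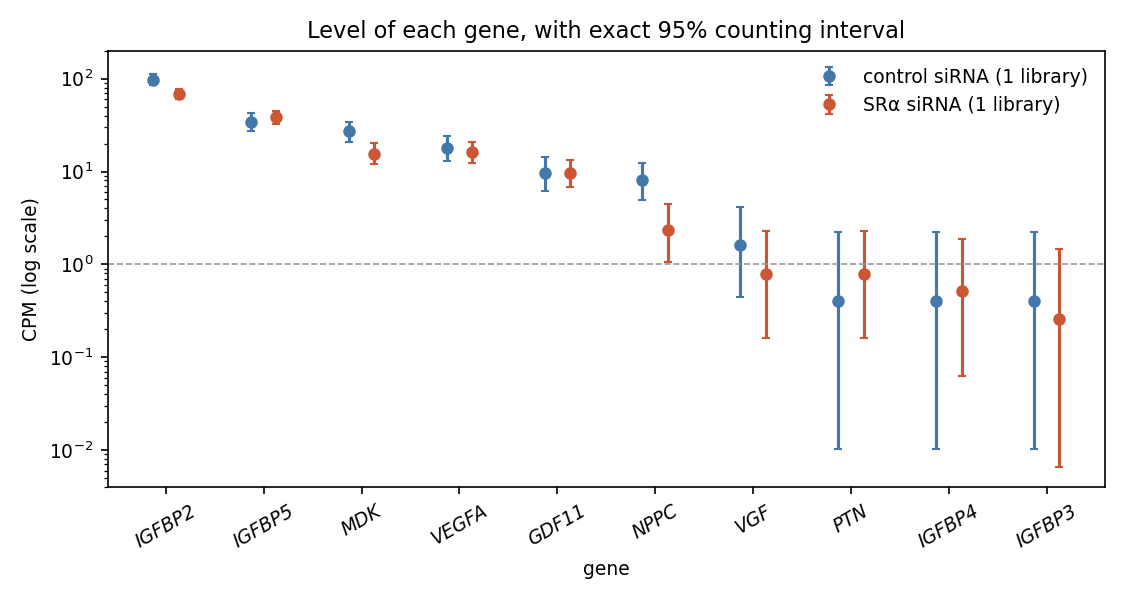
Level of each of the 10 genes in CPM on a log scale, with blue points for the control siRNA library, orange points for the SRα siRNA library and bars for the exact 95% counting interval (1 library each). The dashed line is 1 CPM. IGFBP2, MDK and NPPC are lower in the SRα siRNA library, and PTN, IGFBP4 and IGFBP3 lie under 1 CPM in both.

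Of the 7 measured genes, 6 were lower and 1 was higher in the SRα library, 3 were at least 1.5-fold lower (MDK, NPPC and VGF) and 1 of these, NPPC, was at least 2-fold lower. VGF, at 1.62 and 0.78 CPM, counts as measured only through the control library, so it could be counted only as lower. Among all 12747 measured genes 48.6% were lower and 51.4% higher, 6.97% at least 1.5-fold lower and 2.57% at least 2-fold lower. None of the 7 was at least 1.5-fold or 2-fold higher, against 6.55% and 2.15% of measured genes. The median log2 ratio was -0.52 over the 7 and 0.01 over all measured genes. The same contrast chose the list, so nothing is read from these counts. Fold sizes also depend on the depth of a gene. At a mean of 1 to 5 CPM 23.9% of genes were at least 1.5-fold lower, at 5 to 20 CPM 7.13%, at 20 to 50 CPM 0.75% and at 50 CPM or more 0.0499%.

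**Figure D2:**
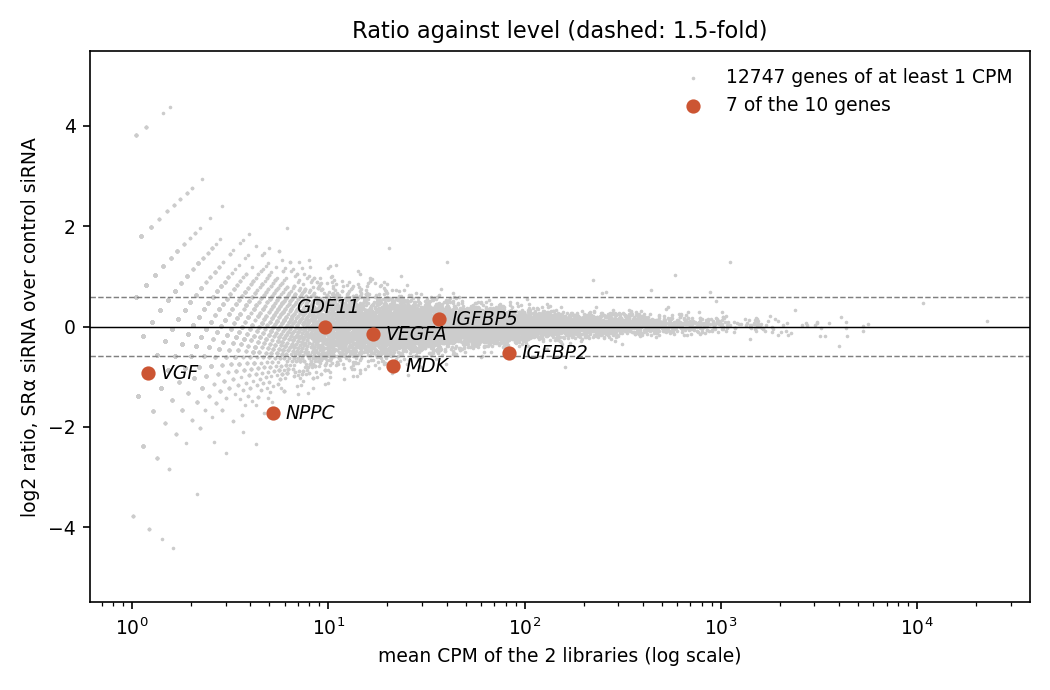
Log2 ratio of SRα siRNA over control siRNA against mean CPM (log scale) for 12747 measured genes in grey and for the 7 measured growth factors and binding proteins in orange. Dashed lines mark 1.5-fold, and MDK, IGFBP2 and NPPC lie at the lower edge of the genes with like levels.

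IGFBP2, which binds both IGFs, was the most-read of the 10 genes. It had 242 reads in the control library and 262 in the deeper SRα library, or 97.7 and 68.1 CPM. The SRα library was the lower one, with a log2 ratio of -0.52 (-0.78 to -0.26), a ratio of 0.697 (0.583 to 0.833). It ranked 4 from the lowest of 4007 genes of at least 50 CPM and 1089 from the lowest of all 12747 measured genes. IGFBP2 was chosen with its ratio known, which these ranks do not take into account. IGFBP5, which also binds extracellular matrix, had 85 and 148 reads, or 34.3 and 38.5 CPM. Its levels were close, at a log2 ratio of 0.16 (-0.23 to 0.57), and a ratio below 0.852 or above 1.48 lies outside the counting interval. Up to 4.63% of the exonic length of IGFBP5 is shared with an antisense gene in GENCODE 29, and whether strand was used in counting was not stated in the sources used here.

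The 2 abundant binding proteins thus stood in different proportion. IGFBP2 reads outnumbered IGFBP5 reads by 2.85 to 1 in the control library and by 1.77 to 1 in the SRα library. The second proportion was 0.622 times the first (exact conditional interval 0.446 to 0.865), a value that does not depend on how the libraries are scaled. That interval covers counting error in 1 library per group. It takes no account of the choice of these genes with their ratios known. As a share of the reads of the 4 IGF-binding proteins, IGFBP2 had 73.6% (68.4% to 78.2%) and then 63.4% (58.6% to 68.1%), and IGFBP5 had 25.8% (21.2% to 30.9%) and then 35.8% (31.2% to 40.7%). IGFBP3, the main carrier of IGFs in blood, had 1 read in each library. IGFBP4, a binding protein that the protease PAPPA cleaves, had 1 and 2 reads. Their ratios of 0.744 (0.00820 to 50.5) and 1.21 (0.0670 to 75.9) place no useful limit on a difference at this depth.

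IGFBP2 and IGFBP5 are neighbours on chromosome 2, on opposite strands. The 250 bases before the start site of each are shown to set the sequences beside these unlike ratios. They come from RefSeq's promoter table (GRCh38.p14), which matched 8 of the 10 genes, without MDK and VEGFA. For IGFBP2, which has 3 listed starts, the one with the highest GC content is printed. IGFBP2 is on the plus strand at chr2:216633170-216633419, and IGFBP5 is on the minus strand at chr2:216695550-216695799.
IGFBP2: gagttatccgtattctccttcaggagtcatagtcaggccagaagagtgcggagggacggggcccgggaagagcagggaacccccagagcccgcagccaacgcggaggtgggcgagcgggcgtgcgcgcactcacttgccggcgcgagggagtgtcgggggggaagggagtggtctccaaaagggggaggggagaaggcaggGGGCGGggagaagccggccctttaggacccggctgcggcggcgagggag
IGFBP5: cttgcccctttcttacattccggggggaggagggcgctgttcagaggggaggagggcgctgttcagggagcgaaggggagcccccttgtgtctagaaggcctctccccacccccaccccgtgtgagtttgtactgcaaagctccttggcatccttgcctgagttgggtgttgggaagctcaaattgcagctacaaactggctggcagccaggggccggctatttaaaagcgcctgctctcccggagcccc
Capitals mark GGGCGG or its reverse complement CCGCCC, the GC box bound by SP1-type factors. TATAAA and its reverse complement TTTATA were also searched, and the motifs do not overlap. The printed IGFBP2 window has 69.2% GC and 1 GC box, and the IGFBP5 window has 61.2% GC and 0 exact matches to either motif. The windows of the other listed IGFBP2 starts have 56.8% GC with 1 GC box and 56.4% GC with 0. Their GC content is below that of IGFBP5, so the order of the 2 genes depends on the start taken. Over 35116 promoter windows of the same length, 42.6% held a GC box and 10.7% held a TATA box. The NPPC window, at 72.0% GC, held 2 GC boxes and 1 TATA box, and the GDF11 window, at 64.4% GC, also held 2 and 1. A match describes the letters in the window only.

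The rest of the IGF axis was read from a fixed list of 9 ligands, receptors and adaptors, of which 6 were measured. Of these 1 was lower and 5 were higher in the SRα library, against 48.6% lower over all measured genes, with a median log2 ratio of 0.13. None was past 1.5-fold, against 6.97% lower and 6.55% higher over all measured genes. The receptor IGF1R had 114 and 202 reads, with its log2 ratio at 0.19 (-0.15 to 0.53). IGF2R, which clears IGF2, had 693 and 1077 reads, with its log2 ratio at 0.00 (-0.14 to 0.14). The insulin receptor INSR was the lowest, with 100 and 127 reads, with its log2 ratio at -0.29 (-0.68 to 0.10). IRS1, an adaptor of these receptors, was the highest at 0.57 (-0.32 to 1.57) from 15 and 35 reads.

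IRS4, an adaptor of the same family, had 1118 and 1830 reads, with its log2 ratio at 0.08 (-0.03 to 0.18). The ligands IGF1, IGF2 and INS had no read in either library. A count of 0 allows up to 3 reads, which is 1.21 CPM in the control library and 0.78 CPM in the SRα library. IGF2 shares exons with the readthrough gene INS-IGF2, also at 0 reads, and reads that match several genes were not counted, so the level of IGF2 is uncertain.

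Of 10 other genes of this axis (further binding proteins, proteases that cleave them and inhibitors of those proteases), 4 were measured. Of these 3 were lower and 1 higher, with a median of -0.17, against 48.6% lower over all measured genes. STC2, an inhibitor of PAPPA, was the most read, at 229 and 388 reads, with its log2 ratio at 0.12 (-0.11 to 0.37). The protease HTRA1 had 43 and 58 reads, with its log2 ratio at -0.20 (-0.80 to 0.40). IGFBPL1, the one past 1.5-fold (named after its values were seen), had 4 and 2 reads. It lay between 1 and 5 CPM, where 23.9% of genes were at least 1.5-fold lower. PAPPA itself, PAPPA2, IGFBP1 and IGFALS had no read.

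MDK had 67 reads in the control library and 60 in the SRα library, or 27.1 and 15.6 CPM. Its log2 ratio was -0.79 (-1.32 to -0.27), a ratio of 0.579 (0.400 to 0.829). It ranked 4 from the lowest of 2800 genes between 20 and 50 CPM, with a mean of 21.3 CPM near the lower end. Over all 12747 measured genes it ranked 595 from the lowest. MDK was chosen with its ratio known, which neither the ranks nor the interval take into account. In proportion to IGFBP5 its reads went from 0.788 to 0.405, or 0.514 times (0.324 to 0.817). In proportion to IGFBP2 they went from 0.277 to 0.229, or 0.827 times (0.549 to 1.24), so no difference between the ratios of MDK and IGFBP2 was detectable at this depth. Its relative PTN had 1 and 3 reads, its ratio being 1.67 (0.155 to 101).

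Messages for receptors of midkine and pleiotrophin were present. Of 20 listed receptors 19 were measured, 16 lower and 3 higher in the SRα library, with a median log2 ratio of -0.11, and 2 were at least 1.5-fold lower. Over all measured genes 48.6% were lower and 6.97% at least 1.5-fold lower, and 2 of 19 is near the latter share. One of these was syndecan-1 (SDC1), a heparan sulfate proteoglycan, with 31 and 26 reads, with its log2 ratio at -0.87 (-1.70 to -0.09). The other was LTK, a kinase of the ALK family, with 8 and 7 reads, named after its values were seen. SDC3 had 53 and 60 reads, with its log2 ratio at -0.45 (-1.01 to 0.10). The endocytic receptor LRP1 had 180 and 197 reads, with its log2 ratio at -0.50 (-0.80 to -0.21). PTPRZ1, a receptor phosphatase that binds both factors, had 43 and 62 reads, with its log2 ratio at -0.11 (-0.69 to 0.49). Nucleolin (NCL), a nucleolar protein that can also bind midkine at the cell surface, had 9494 and 16930 reads and was higher, at 0.20 (0.16 to 0.24). The kinase receptor ALK had no read.

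NPPC had 20 and 9 reads, or 8.08 and 2.34 CPM, and the SRα library was the lower one. The log2 ratio was -1.72 (-3.11 to -0.59), a ratio of 0.303 (0.116 to 0.665). It was the lowest ratio among 3297 genes between 5 and 20 CPM. NPPC entered that range only through the control library, at 8.08 against 2.34 CPM, so a low rank there is partly built in. NPPC was also chosen with its ratio known, which neither its ranks nor its interval take into account. At a mean of 5.21 CPM NPPC lay near the lower end of that range, where counting error is widest. Over all 12747 measured genes it ranked 61 from the lowest. The message for its receptor NPR2, a guanylyl cyclase, had no read, and the clearance receptor NPR3 had 2 and 1 reads. FURIN, the protease that cuts the precursor of the peptide, had 48 and 73 reads, with its log2 ratio at -0.03 (-0.58 to 0.53). PRKG1, a kinase driven by cyclic GMP, had 88 and 140 reads, with its log2 ratio at 0.03 (-0.36 to 0.44). Of 11 genes of this pathway 5 were measured, with a median of -0.03. Of these 3 were lower and 2 higher, against 48.6% lower over all measured genes. Of the 5, 1 was at least 1.5-fold lower, OSTN from 7 and 7 reads (named after its values were seen). It lay between 1 and 5 CPM, where 23.9% of genes were at least 1.5-fold lower, against 6.97% of all measured genes.

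GDF11 had 24 and 37 reads, or 9.69 and 9.62 CPM. The libraries were level, at a log2 ratio of -0.01, and the counting interval (-0.79 to 0.79) leaves room for differences of up to 1.73-fold. Up to 4.51% of its exonic length is shared with genes on the opposite strand, mainly SARNP. Its type II receptors were lower by amounts within counting error, ACVR2A at -0.22 (-0.68 to 0.23) from 73 and 97 reads and ACVR2B at -0.33 (-0.80 to 0.13) from 73 and 90. Its type I receptors lay on both sides of 0, ACVR1B at -0.24 (-0.74 to 0.27) and TGFBR1 at 0.26 (-0.11 to 0.65). Of 22 genes of activin and GDF11 signalling 16 were measured. In the SRα library 12 were lower and 4 higher, with a median of -0.21, 2 at least 2-fold lower and 1 at least 1.5-fold higher. Over all measured genes these shares were 48.6% lower, 2.57% at least 2-fold lower and 6.55% at least 1.5-fold higher. These 3 were the inhibitors SMAD7 (9 and 5 reads), FSTL3 (9 and 4) and FST (2 and 5, the higher one), named after their values were seen. All 3 lie between 1 and 5 CPM, where 23.9% of genes were at least 1.5-fold lower. The shares at least 2-fold lower or 1.5-fold higher at that level are not given here. Among genes of at least 5 CPM the lowest was LTBP3, a binding protein of latent TGF-β, at -0.55 (-1.26 to 0.15).

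VEGFA had 44 and 62 reads, or 17.8 and 16.1 CPM, with a log2 ratio of -0.14 (-0.72 to 0.45). No difference was detectable, and a ratio below 0.606 or above 1.37 lies outside the counting interval. Its receptor FLT1 had 43 and 57 reads, with its log2 ratio at -0.23 (-0.83 to 0.38), and KDR, the main signalling receptor in endothelium, had 4 and 4 reads. The neuropilins, co-receptors of VEGF-A, had log2 ratios of -0.24 (-0.73 to 0.26) for NRP1 and -0.03 (-0.33 to 0.28) for NRP2. VEGFB, a relative that binds FLT1, had 13 and 17 reads, with its log2 ratio at -0.24 (-1.38 to 0.91). Of 9 relatives and receptors 7 were measured, with a median of -0.23. Of these 5 were lower and 2 higher, against 48.6% lower over all measured genes, and none was past 1.5-fold (6.97% lower, 6.55% higher). The 2 higher ones were VEGFC at 0.10 (-1.19 to 1.47), named after its values were seen, and its receptor FLT4 at 0.07 (-0.30 to 0.46).

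VEGFA is also a target of hypoxia-inducible factors. Of 21 other regulators and targets of hypoxia, 19 were measured. In the SRα library 9 were lower and 10 higher, against 48.6% lower over all measured genes. None of the 19 was past 1.5-fold (6.97% lower and 6.55% higher over all measured genes), and their median log2 ratio was 0.00. The range ran from the peptide hormone ADM at -0.53 (-1.62 to 0.53) to the kinase PDK1 at 0.19 (-0.33 to 0.73).

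VGF had 4 and 3 reads, or 1.62 and 0.78 CPM, and a log2 ratio of -0.92 (-3.82 to 1.51), so its place among the genes at least 1.5-fold lower rests on a handful of reads. Some other genes of granins and of hormone processing had more reads. CPE, a carboxypeptidase that trims prohormones, had 307 and 418 reads, with its log2 ratio at -0.19 (-0.41 to 0.03). PCSK1N, a granin-like inhibitor of the convertase PCSK1, had 92 and 130 reads, with its log2 ratio at -0.14 (-0.53 to 0.26). SCG3, a granin of secretory granules, was in the other direction, with 7 and 32 reads, with its log2 ratio at 1.51 (0.35 to 2.98). It ranked 3295 from the lowest of 3297 genes between 5 and 20 CPM. SCG3 entered that range only through the SRα library, at 8.32 against 2.83 CPM, so a high rank there is partly built in. Its interval takes no account of this. Of 13 such genes 7 were measured, with a median of -0.14. Of these 4 were lower and 3 higher, against 48.6% lower over all measured genes. SCG3 was the one past 1.5-fold, against 6.55% of all measured genes at least 1.5-fold higher and 6.97% lower.

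**Figure D3:**
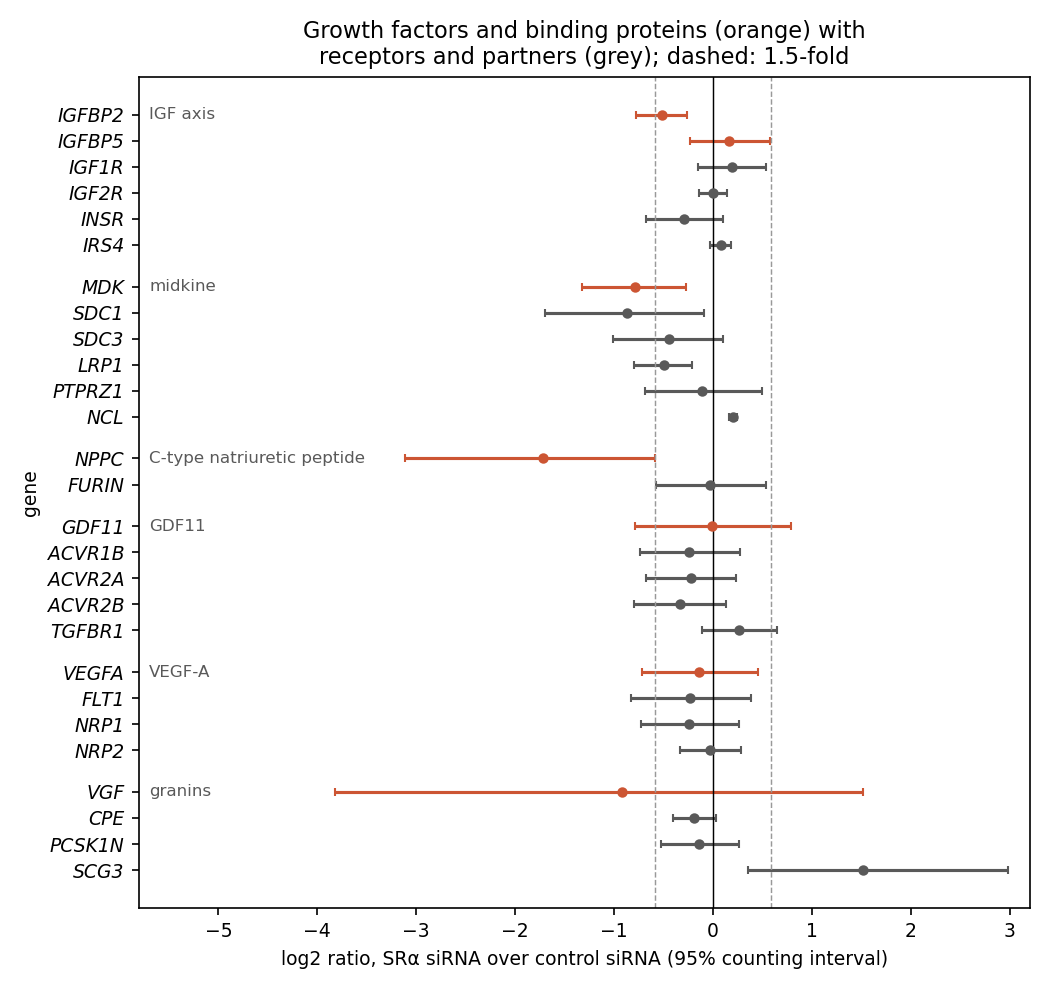
Log2 ratio of SRα siRNA over control siRNA for measured growth factors and binding proteins (orange) and for their receptors and partners (grey), with bars for the 95% counting interval and dashed lines at 1.5-fold. NPPC, VGF, SDC1 and MDK lie to the left of the lower dashed line, SCG3 lies to the right of the upper one, and the points of the IGF axis lie between the lines.

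Levels can be set side by side between genes only per length. On reads per kilobase of exon per 1000000 reads, the order in the control library was IGFBP2 at 20.5 (18.0 to 23.3, exact Poisson), MDK at 12.3 (9.55 to 15.6), NPPC at 7.54 (4.61 to 11.6), IGFBP5 at 5.33 (4.26 to 6.59), VEGFA at 1.23 (0.895 to 1.65), GDF11 at 1.12 (0.717 to 1.67) and VGF at 0.597 (0.163 to 1.53). PTN, IGFBP4 and IGFBP3 followed at 0.236, 0.184 and 0.0883. The intervals overlapped for MDK and NPPC, for NPPC and IGFBP5, for VEGFA and GDF11, for GDF11 and VGF and among the genes from VGF down. They did not overlap for IGFBP2 and MDK, or for IGFBP5 and VEGFA. In the SRα library the order was IGFBP2 at 14.3 (12.6 to 16.1), MDK at 7.10 (5.42 to 9.14), IGFBP5 at 5.97 (5.05 to 7.01), NPPC at 2.18 (0.999 to 4.15), VEGFA at 1.12 (0.856 to 1.43) and GDF11 at 1.11 (0.782 to 1.53). There the intervals overlapped for MDK and IGFBP5, for NPPC and VEGFA and for VEGFA and GDF11, and did not overlap for IGFBP2 and MDK or for IGFBP5 and NPPC. On this scale NPPC and IGFBP5 stood in the opposite order in the 2 libraries. With the length of the longest coding transcript instead, VEGFA moved to 5.03 and 4.56, IGFBP2 to 67.9 and 47.3 and MDK to 23.2 and 13.4, and in the SRα library VEGFA then stood above NPPC (2.23).

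Ratios in these libraries moved with GC content, and the genes of the list are unlike in GC. Measured genes were split into 10 equal groups by the GC content of their transcript. The median log2 ratio ran from 0.06 in the lowest group to -0.08 in the highest, and the share of genes at least 1.5-fold lower from 4.68% to 11.9%. The highest group (61.7% GC or more) holds MDK at 63.1%, IGFBP2 at 67.7% and VGF at 70.6%. IGFBP4, at 62.5%, has a GC content in that range but was not measured and so is in no group. IGFBP5 at 51.9% and NPPC at 52.7% lie in group 7, whose median was -0.01. After subtraction of the median of its own group, IGFBP2 stood at -0.44, MDK at -0.71 and NPPC at -1.71. The part of GC content in these ratios beyond that subtraction was not tested.

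**Figure D4:**
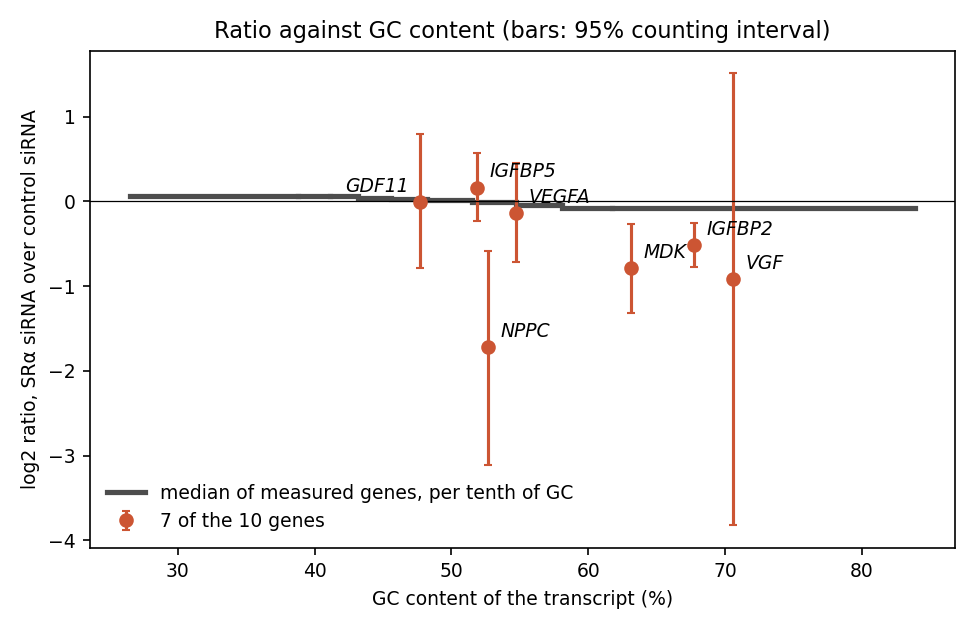
Log2 ratio of SRα siRNA over control siRNA against transcript GC content for the 7 measured growth factors and binding proteins (orange, bars for the 95% counting interval), with the median of all measured genes in each of 10 GC groups as a dark line. MDK, IGFBP2 and NPPC lie below the line by more than their counting intervals, and IGFBP5, VEGFA, GDF11 and VGF do not.

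Other growth factors, and genes named like or grouped with them, were read from 2 fixed lists. The presence or lack of a signal peptide was not shown for each listed gene. Of 69 listed as having a signal peptide 27 were measured, 15 lower and 12 higher, with a median log2 ratio of -0.09. Among the 27, 6 were at least 1.5-fold lower and 5 at least 1.5-fold higher, against 6.97% and 6.55% of all measured genes. Most of these had a mean between 1 and 5 CPM. There 23.9% of genes were at least 1.5-fold lower, and the share at least 1.5-fold higher is not given here. Among the growth factors of this list of at least 5 CPM, 2 were past 1.5-fold, both bone morphogenetic proteins and both lower. BMP4 had 43 and 40 reads, with its log2 ratio at -0.73 (-1.40 to -0.08), and BMP8B had 19 and 17 reads, with its log2 ratio at -0.78 (-1.83 to 0.23). The other list held 16 genes named like or grouped with growth factors and taken to lack a signal peptide. Not all of them act as growth factors. Of the 16, 9 were measured, with a median of -0.11. Of these 6 were lower and 3 higher, against 48.6% lower over all measured genes. The one past 1.5-fold was TYMP, an enzyme also known as an endothelial growth factor, at -2.38 (-8.52 to 0.20) from 5 and 1 reads. TYMP, named after its values were seen, also lay between 1 and 5 CPM. In this list the genes of at least 5 CPM ran from the cytokine MIF at -0.40 (-1.0 to 0.20) to the HDGF relative HDGFL3 at 0.39 (-0.10 to 0.90). Whether the 2 lists differ was not tested.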

How the data were processed

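The authors deposited raw counts, 1 whole number per Ensembl gene ID and library, for 1 control siRNA and 1 SRα siRNA library. Libraries came from TRIzol-extracted RNA and a stranded TruSeq mRNA kit, per the labels' protocols. Tools named are cutadapt and STAR 2.5.2b, with build hg19, per the submitters' processing notes. Counting program, strand setting and gene annotation: not given in the sources used here. Closing lines that name no gene held 82.0% and 79.3% of all entries (mostly alignments that were not unique) and were left out of library sizes.

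Libraries were scaled with TMM factors (edgeR 4.0.16, R 4.3.3) to effective sizes of 2476276 and 3847820. Log2 ratios carry a prior count of 0.5 scaled to depth. Their 95% intervals are exact (Clopper-Pearson) from the 2 counts, computed with Python 3.11.15 and scipy 1.17.1. Reads carry no molecular identifiers, so they are not independent molecules. Genes of a mean of at least 1 CPM were kept, and no test between groups was possible. Lengths, GC content (known for 98.8% of measured genes) and coding sequences came from GENCODE 29 by gene ID. The ratio and interval were tested on simulated counts. The 10 genes, the 10 lists of pathway genes and the lists of markers were chosen with earlier results of these data known. Named genes are the 10, SRPRA, fixed ligands and receptors, and in each list the genes of at least 5 CPM past 1.5-fold or else its extremes. Alternatives tried were upper quartile factors, library totals, size factors from DESeq2 1.42.0, totals without mitochondrially encoded and the 10 most-read genes, factors from protein-coding genes, a prior count of 2, centring on GC or level, no filter and a filter of 5 CPM. The length of the longest coding transcript was added after the data were seen.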

Additional observations from a re-analysis of the deposited data

How the results depend on the processing

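The log2 ratios of the 10 genes stayed within their main counting intervals in all 80 recomputations with other scalings, a prior count of 2 or centring. For genes with few reads these intervals are wide (PTN -2.69 to 6.66), so staying within them says little. IGFBP2 ranged from -0.56 to -0.44, MDK from -0.83 to -0.71, NPPC from -1.76 to -1.55 and IGFBP5 from 0.13 to 0.18. GDF11 lay on either side of 0 (-0.05 to 0.01). With other scalings, a prior count of 2 or centring, 5 or 6 of the 7 measured genes were lower and 3 at least 1.5-fold lower. With no filter 7 of 10 genes were lower and 3 at least 1.5-fold lower, and with a mean of at least 5 CPM 5 of 6 were lower. In every alternative 1 gene was at least 2-fold lower. The shares of all genes under these alternatives are not given here, and nothing is read from these counts. With no filter on low levels the median over the genes was -0.28 and 1 gene, PTN with 1 and 3 reads, was at least 1.5-fold higher. With a mean of at least 5 CPM, which leaves out VGF, the median over 6 genes was -0.33, and 2 genes were at least 1.5-fold lower. Of these, NPPC passes that filter only through the control library (8.08 and 2.34 CPM). Scalings moved the median of all measured genes between -0.03 and 0.01. No paired analysis was possible because each group has 1 library. For the same reason no replicate could be left out. Depth leaves PTN, IGFBP3, IGFBP4 and VGF without a usable ratio.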

Other observations

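Many growth factor genes were silent or near silent in both libraries. Of the 69 further growth factors listed as having a signal peptide, 23 had no read in either library, among them EGF, AREG, GDF15 and LIF. Another 19 had reads but a mean under 1 CPM. The most read ones, picked after their values were seen, were MANF, an ER-resident neurotrophic factor that is also secreted, with 1710 and 2362 reads, at a log2 ratio of -0.17 (-0.26 to -0.08), GRN, the progranulin precursor, with 420 and 530 reads and -0.30 (-0.49 to -0.11), and CCN1, a matrix-bound factor, with 405 and 600 reads and -0.07 (-0.25 to 0.12). MYDGF, another factor of the secretory pathway, had 347 and 495 reads and -0.12 (-0.32 to 0.08).

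Values of 3 heparan sulfate proteoglycans, which can hold heparin-binding factors, were as follows. Glypican-3 (GPC3) had 821 and 1253 reads, at a log2 ratio of -0.03 (-0.15 to 0.10), syndecan-2 (SDC2) had 694 and 1184 reads and 0.13 (-0.00 to 0.27), and glypican-1 (GPC1) had 95 and 109 reads and -0.44 (-0.85 to -0.03). These 3 were also picked after their values were seen, and a difference among them was not tested.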
